A study of Mus musculus with 12 samples.

Results

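The 10 genes described here, Hspa5, Xbp1, Atf4, Atf6, Ddit3, Asns, Chac1, Herpud1, Sdf2l1 and Trib3, belong to the unfolded protein response and to the stress response run by the transcription factor ATF4. They were taken by gene name from a table of 36222 mouse genes, and each name had 1 row. RNA was sequenced from 12 libraries of regulatory T cells (Treg, CD4+ T cells that express Foxp3 and restrain immune responses), in 4 groups of 3. To ask what the transcription factor Ikaros does in Treg, wild-type (WT) mice with a Foxp3-YFP-Cre allele were compared with mice that carried the same Cre and a floxed Ikzf1 gene (cKO). Both genotypes therefore carried the Cre, which acts where Foxp3 is expressed and also marks the sorted cells with YFP. CD4+ cells of single mice were sorted for YFP; the labels name the spleen as their source, and the study's methods name spleen and lymph nodes. The RNA came either straight from the sorted cells (ex vivo) or from cells held for 4 h on plate-bound antibodies to the T cell receptor complex (CD3) and the costimulatory receptor CD28, 1 µg/ml each (stimulated). Mice of the ex vivo comparison were 6 to 8 weeks old, and the age of the mice used for stimulation was not given in the sources used here. No group was cultured for 4 h without the antibodies, so the culture and the antibodies cannot be told apart in any stimulation effect below.

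The endoplasmic reticulum (ER) folds membrane and secreted proteins, and unfolded protein there is sensed by IRE1, PERK and ATF6. IRE1 splices Xbp1 mRNA so that it codes for an active transcription factor, ATF6 is cut to release one, and PERK phosphorylates eIF2alpha, which lowers translation in general while raising translation of Atf4. Other eIF2alpha kinases that sense amino acid shortage, viral RNA or heme shortage lead to ATF4 as well, which makes the arm after eIF2alpha the integrated stress response. Much of this control acts on splicing, translation or cleavage, and the gene-level values used here show only how much mRNA was present, with both spliced forms of Xbp1 counted together.

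The promoters of these genes are known for short elements that the same factors read, and those that the search found are shown because they tell which members carry the classical letters of each arm. RefSeq promoters of build GRCm38.p6 (250 bases before to 50 after the start) were in the table for 9 of the 10 genes; Atf6 had no entry. Both strands were searched for 4 motifs: the ER stress element ERSE (CCAAT and CCACG with 9 free bases between), its variant ERSE-II (ATTGG and CCACG with 1 free base between), the element UPRE (TGACGTGG) and the C/EBP-ATF composite CARE (TGATGNAA). ERSE and ERSE-II both end in CCACG and can overlap, and no member held both. Each stretch below runs 5′ to 3′ on the strand of its gene, and capitals mark the motif.
Hspa5 (ERSE), chr2:34771990-34772089, plus strand: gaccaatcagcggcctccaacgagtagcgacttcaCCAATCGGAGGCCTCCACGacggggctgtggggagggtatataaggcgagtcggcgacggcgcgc
Herpud1 (CARE on the opposite strand, then ERSE-II), chr8:94386309-94386408, plus strand: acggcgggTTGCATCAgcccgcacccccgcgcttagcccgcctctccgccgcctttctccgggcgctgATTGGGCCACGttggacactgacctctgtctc
Asns (CARE), chr6:7693210-7693309, minus strand: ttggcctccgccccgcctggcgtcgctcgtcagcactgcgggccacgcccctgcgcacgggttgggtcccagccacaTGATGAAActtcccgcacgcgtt
Chac1 (CARE on the opposite strand), chr2:119351012-119351111, plus strand: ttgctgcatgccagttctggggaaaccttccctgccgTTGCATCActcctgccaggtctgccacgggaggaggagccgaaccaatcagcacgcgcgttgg
Trib3 (CARE on the opposite strand, behind the start), chr2:152344028-152344057, minus strand: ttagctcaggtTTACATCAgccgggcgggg
Of the 32851 promoters in the table, 0.119% held ERSE, 0.0365% ERSE-II, 0.676% UPRE and 3.97% CARE. ERSE began 65 bases before the start of Hspa5 and ERSE-II 52 bases before that of Herpud1. CARE matches began 23 bases before the start of Asns, 112 before Herpud1 and 193 before Chac1, and 15 bases into Trib3. Xbp1, Atf4, Ddit3 and Sdf2l1 held none of the 4 motifs in this window. A match describes letters and is not a measured binding site.

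Reads on genes numbered 8208659 to 20247649 per library, fewest in the stimulated cKO group. One transcript, Gm10800, took 17.7% to 55.9% of all TPM, most in stimulated cKO library 3, and so lowered every other deposited TPM (transcript abundance as a share of the library total) there. Tests were therefore run on TPM rescaled between libraries, and changes are given on log2(scaled TPM + 1), relative to the trimmed mean of the 13318 genes that reached a mean of 5 TPM in at least 1 group. Ikzf1, the targeted gene, read 83.8 to 125 TPM in WT and 38.8 to 44.3 TPM in cKO ex vivo, and 66.4 to 83.4 against 17.04 to 31.6 TPM after stimulation, so the labels and the gene went the same way. Exact two-sided permutation tests gave p = 0.1 both times, the smallest that 3 libraries against 3 allow. All 7 Treg markers, Foxp3, Il2ra and Ctla4 among them, were present, with a summed level of 912 to 2455 TPM. The female transcript Xist read 179 TPM in WT ex vivo library 3 and at most 1.36 TPM in the other 11 libraries, so the calls of members that rest on this library are given with and without it.

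In WT, stimulation lowered 5 of the 9 members tested and raised none, against 19.3% lower, 12.7% higher and 32% called in either direction among all genes. In cKO it lowered 5, against 26.5% lower, 17.3% higher and 43.8% called in all; a sixth member, Trib3, passed as higher but had entered the test only through the stimulated groups where it was high, so its call is not read as a rise. Hspa5, Herpud1, Atf4 and Ddit3 fell in both genotypes. Xbp1 fell in WT, while in cKO its interval spanned 0. Without WT ex vivo library 3, the same 5 members passed in WT, with changes of -1.26 for Hspa5, -1.57 for Herpud1, -1.78 for Atf4, -1.85 for Ddit3 and -0.96 for Xbp1. The median change of the 9 tested members was -0.95 in WT and -0.29 in cKO, against 0.00207 and -0.0101 over all tested genes; Asns and Trib3 are among the 9 only through stimulated groups. The stimulation effects of WT and cKO rest on different libraries, and each shares its libraries with the genotype comparisons.

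**Figure D1:**
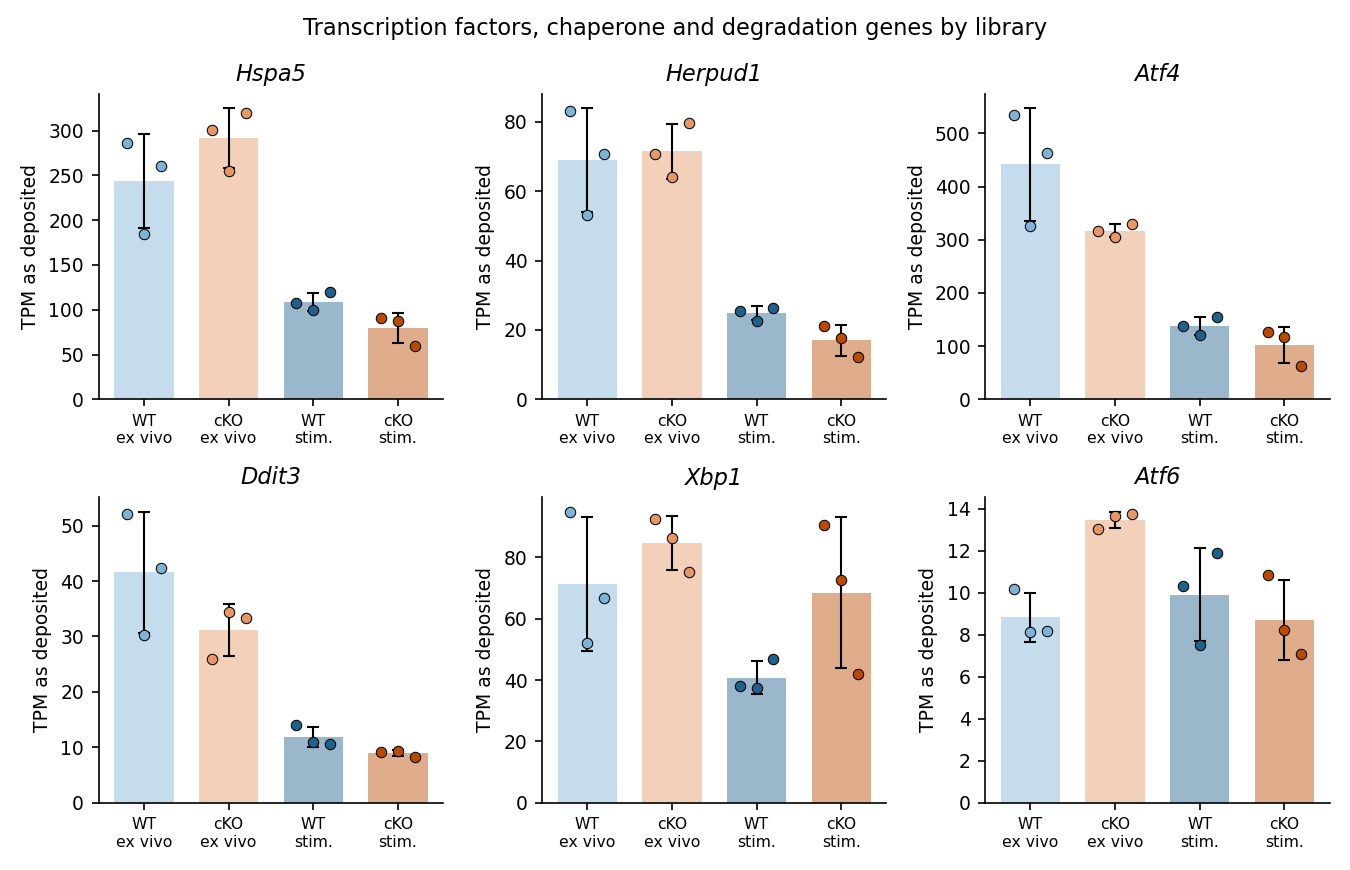
Deposited TPM (vertical axis, linear from 0) of 6 genes in each library, by group. Points are libraries in replicate order, bars are group means and whiskers are SD (n = 3); Hspa5, Herpud1, Atf4 and Ddit3 lie lower in every stimulated library than in every ex vivo library, and Xbp1 in stimulated cKO runs from 42.0 to 90.7 TPM.

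Hspa5 (ENSMUSG00000026864, mm9 chromosome 2, 34627490 to 34632051, plus strand) encodes BiP, the main Hsp70 chaperone of the ER, which also holds the sensors inactive. Ex vivo it read 286, 185 and 260.1 TPM in WT libraries 1, 2 and 3 and 301, 255 and 319.7 TPM in cKO. After stimulation it read 108, 99.2 and 119 TPM in WT and 91.1, 87.7 and 60.0 TPM in cKO. Every stimulated library lay below every ex vivo library of either genotype; deposited TPM of the stimulated and ex vivo groups did not overlap for 33.1% of all genes in WT and 51.4% in cKO, and scaled TPM for 47.5% and 53.5%. The fall was -1.33 in WT (SE 0.13, limma adjusted p = 2.75e-05), or 0.397 of the ex vivo level, and -1.55 in cKO (SE 0.13, adjusted p = 7.76e-06). Under quantile normalization, which gives all libraries the same distribution of values, it was smaller, -0.73 and -0.87, and still passed. Between genotypes the change was 0.04 ex vivo (95% interval -0.24 to 0.32) and -0.18 after stimulation (-0.46 to 0.10), and neither passed the test.

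Herpud1 (ENSMUSG00000031770, mm9 chromosome 8, 96910338 to 96919277, plus strand) encodes an ER membrane protein of ER-associated degradation, the route by which misfolded proteins leave the ER for the proteasome. The ex vivo levels were 83.1, 53.3 and 70.8 TPM for WT and 70.7, 64.1 and 79.8 TPM for cKO. The stimulated levels were 25.5, 22.7 and 26.4 TPM for WT and 21.1, 17.8 and 12.2 TPM for cKO. Stimulated and ex vivo libraries did not overlap, and the stimulated cKO libraries all lay below the stimulated WT libraries. After stimulation, deposited TPM of the 2 genotypes did not overlap for 30.8% of all genes. Stimulation lowered Herpud1, with a change of -1.61 in WT (SE 0.11, adjusted p = 4.3e-06) and -1.72 in cKO (SE 0.11, adjusted p = 2.58e-06). After stimulation the genotype difference of -0.27 (95% interval -0.52 to -0.02) had an unadjusted p of 0.0363 and did not pass the adjusted test (adjusted p = 0.18).

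Sdf2l1 (ENSMUSG00000022769, mm9 chromosome 16, 17130231 to 17132476, minus strand), which encodes an ER-lumen partner of BiP, was at a lower level and passed no test. It read 10.02 to 11.3 TPM in ex vivo WT, 11.7 to 14.9 TPM in ex vivo cKO, 7.6 to 13.8 TPM in stimulated WT and 8.59 to 12.6 TPM in stimulated cKO. The 3 cKO ex vivo libraries lay above the 3 WT ex vivo libraries as deposited (22.9% of all genes did not overlap there) but overlapped them after scaling, and the scaled change was 0.07 (95% interval -0.32 to 0.46). Stimulation changed it by -0.17 in WT (-0.56 to 0.22) and -0.08 in cKO (-0.47 to 0.31). Its cKO value was lower by more, -0.58, with scaling over genes that reached 1 TPM (adjusted p = 0.0444), which placed all genes lower by a median of -0.49. That setting changes both the genes tested and the scaling factors, and their parts in the value were not told apart.

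Atf4 (ENSMUSG00000042406, mm9 chromosome 15, 80085614 to 80087970, plus strand), the transcription factor of the integrated stress response, had the highest mean of the 10 genes in every group, though it overlapped Hspa5 in both cKO groups. Ex vivo it read 536, 326 and 463 TPM in WT and 317, 306 and 329 TPM in cKO. Stimulated libraries read 138, 121 and 155 TPM in WT and 127, 117 and 63.0 TPM in cKO. The lowest ex vivo library was thus above the highest stimulated library. Stimulation lowered Atf4, with a change of -1.85 in WT (SE 0.15, adjusted p = 1.07e-05), to 0.278 of its ex vivo level, and -1.36 in cKO (SE 0.15, adjusted p = 5.39e-05), to 0.39. Quantile normalization gave -1.08 and -0.64, both called.

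Ex vivo, Atf4 was lower in cKO, with a change of -0.68 (SE 0.15, 95% interval -1.01 to -0.36, adjusted p = 0.0233). The deposited TPM overlapped, since WT library 2 read 326 TPM, but scaled TPM did not: 487, 404 and 493 in WT against 301, 260.2 and 297 in cKO, where 21.5% of all genes did not overlap. The difference was -0.45 as deposited (adjusted p = 0.476) and -0.42 under quantile normalization (adjusted p = 0.0425). Gm10800 took 39.8% of the TPM in WT ex vivo library 2 and 17.7% and 20.5% in the other two, and its part in the overlap was not tested. Without WT ex vivo library 3, the library with Xist, the difference was -0.64 and no longer passed (adjusted p = 0.0849). The call held in 12 of 22 alternative settings, and was also lost without WT ex vivo library 1 (adjusted p = 0.0733) or cKO ex vivo library 1, 2 or 3 (0.0593, 0.0807 and 0.0693), with genes down to 1 TPM (0.662) and with no filter (0.686). After stimulation the genotype difference was -0.20 (95% interval -0.52 to 0.13).

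Ddit3 (ENSMUSG00000025408, mm9 chromosome 10, 126727830 to 126733344, plus strand) encodes CHOP, a transcription factor that ATF4 induces and that is known for its part in death of stressed cells. It read 52.1, 30.3 and 42.4 TPM in ex vivo WT, 25.9, 34.3 and 33.3 TPM in ex vivo cKO, 13.97, 10.9 and 10.6 TPM in stimulated WT, and 9.24, 9.28 and 8.33 TPM in stimulated cKO. As with Atf4, ex vivo and stimulated libraries did not overlap. The fall was -1.89 in WT (SE 0.14, adjusted p = 7.68e-06) and -1.37 in cKO (SE 0.14, adjusted p = 4.35e-05). Between the genotypes ex vivo, deposited TPM overlapped and scaled TPM did not, on a scale where 21.5% of all genes did not overlap. Ddit3 was lower in cKO there, with a change of -0.61 (SE 0.14, adjusted p = 0.034). This difference was -0.58 without WT ex vivo library 3 (adjusted p = 0.125) and -0.38 as deposited (adjusted p = 0.421). It too was called in 12 of 22 alternative settings, and not without WT ex vivo library 1 (adjusted p = 0.103) or cKO ex vivo library 1, 2 or 3 (0.125, 0.0726 and 0.0736), with genes down to 1 TPM (0.423) or with no filter (0.441). Exons of Mars overlap those of Ddit3 on the opposite strand, and reads were counted by strand.

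Xbp1 (ENSMUSG00000020484, mm9 chromosome 11, 5420662 to 5425896, plus strand), the transcription factor made by IRE1 splicing and known for its role in secretory cells, was the only tested member called by genotype after stimulation. Ex vivo it read 94.98, 52.0 and 66.8 TPM in WT and 92.5, 86.5 and 75.3 TPM in cKO, with overlapping groups. Stimulated WT libraries read 38.04, 37.4 and 46.9 TPM and stimulated cKO libraries 90.7, 72.7 and 42.0 TPM. As deposited, cKO library 3 fell within the WT range; that library held the largest share of Gm10800, 55.9%. On scaled TPM the groups did not overlap, at 34.0, 40.1 and 38.8 in WT against 86.0, 81.5 and 57.4 in cKO, where 30.8% of all genes did not overlap.

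After stimulation Xbp1 was higher in cKO by 0.96 (SE 0.16, 95% interval 0.60 to 1.32, adjusted p = 0.00616), or 1.94-fold. It was the only member of 9 that passed this test, against 6.93% of all genes (3.3% higher, 3.63% lower). The call held with each of the 12 libraries left out in turn, with adjusted p from 0.00176 to 0.0298. It did not hold on TPM as deposited (0.67, adjusted p = 0.153) or with genes down to 1 TPM in the fit (0.66, adjusted p = 0.354), where the background was 0.201%. Plasma cells, in which Xbp1 is abundant, had their 3 markers Igj, Sdc1 and Tnfrsf17 at a summed 8.22 to 9.91 TPM in stimulated WT and 9.08 to 11.9 TPM in stimulated cKO as deposited. On scaled TPM, the scale of the Xbp1 test, they summed to 8.19 to 8.8 in stimulated WT and 10.96 to 12.4 in stimulated cKO. This sum was higher in every stimulated cKO library, on a scale where 30.8% of all genes did not overlap. As deposited, group means in stimulated WT and cKO were 2.97 and 2.87 TPM for Igj, 3.92 and 3.64 TPM for Sdc1, and 2.22 and 3.74 TPM for Tnfrsf17. Only Tnfrsf17 was thus higher in cKO as deposited. The cells had been enriched for CD4 and sorted for YFP, and the part of plasma cells in the Xbp1 level was not tested.

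Stimulation lowered Xbp1 in WT, with a change of -0.95 (SE 0.16, adjusted p = 0.00133), to 0.518 of the ex vivo level; it was -0.75 and not called as deposited (adjusted p = 0.0812), and -0.62 under quantile normalization (adjusted p = 0.00364). In cKO the change was -0.04 (95% interval -0.40 to 0.32, adjusted p = 0.858), and its direction depended on the scaling: it was 0.52 and called under quantile normalization (adjusted p = 0.00786), and -0.58 with genes down to 1 TPM and -0.37 as deposited, neither called. The difference between these stimulation effects, tested as the interaction of genotype and stimulation, was 0.91 (SE 0.23, 95% interval 0.40 to 1.42). Its adjusted p was 0.0989, so the difference was not called, although its unadjusted p was 0.00251. It was called without stimulated cKO library 3 (1.13, adjusted p = 0.0344) and under quantile normalization (1.15, adjusted p = 0.0086). It was smaller and not called as deposited (0.39, adjusted p = 0.462), with genes down to 1 TPM (0.62, adjusted p = 0.721) and with no filter (0.61, adjusted p = 0.716).

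Atf6 (ENSMUSG00000026663, mm9 chromosome 1, 172634588 to 172797902, minus strand) encodes the membrane-bound sensor that is cut into a transcription factor. It read 10.2, 8.14 and 8.17 TPM in ex vivo WT, 13.03, 13.7 and 13.7 TPM in ex vivo cKO, 10.3, 7.52 and 11.9 TPM in stimulated WT, and 10.8, 8.2 and 7.09 TPM in stimulated cKO. Ex vivo, each cKO library lay above each WT library, as deposited (22.9% of all genes did not overlap) and after scaling (21.5%). The difference was 0.35 (SE 0.09, adjusted p = 0.0482), and 0.56 as deposited (adjusted p = 0.164). That call sat at the threshold: it held in 2 of 22 alternative settings, and without WT ex vivo library 3 the difference was 0.30 (adjusted p = 0.172). Stimulation lowered Atf6 in cKO, with a change of -0.29 (SE 0.09, adjusted p = 0.021). That value was -0.79 with genes down to 1 TPM, -0.78 with no filter and -0.59 as deposited, all called. The call was lost without cKO ex vivo library 1 (adjusted p = 0.0674) or 3 (0.0664) or stimulated cKO library 3 (0.0769). The change in WT was -0.05 (95% interval -0.24 to 0.15). The difference between these effects, -0.25, was not called (adjusted p = 0.391).

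**Figure D2:**
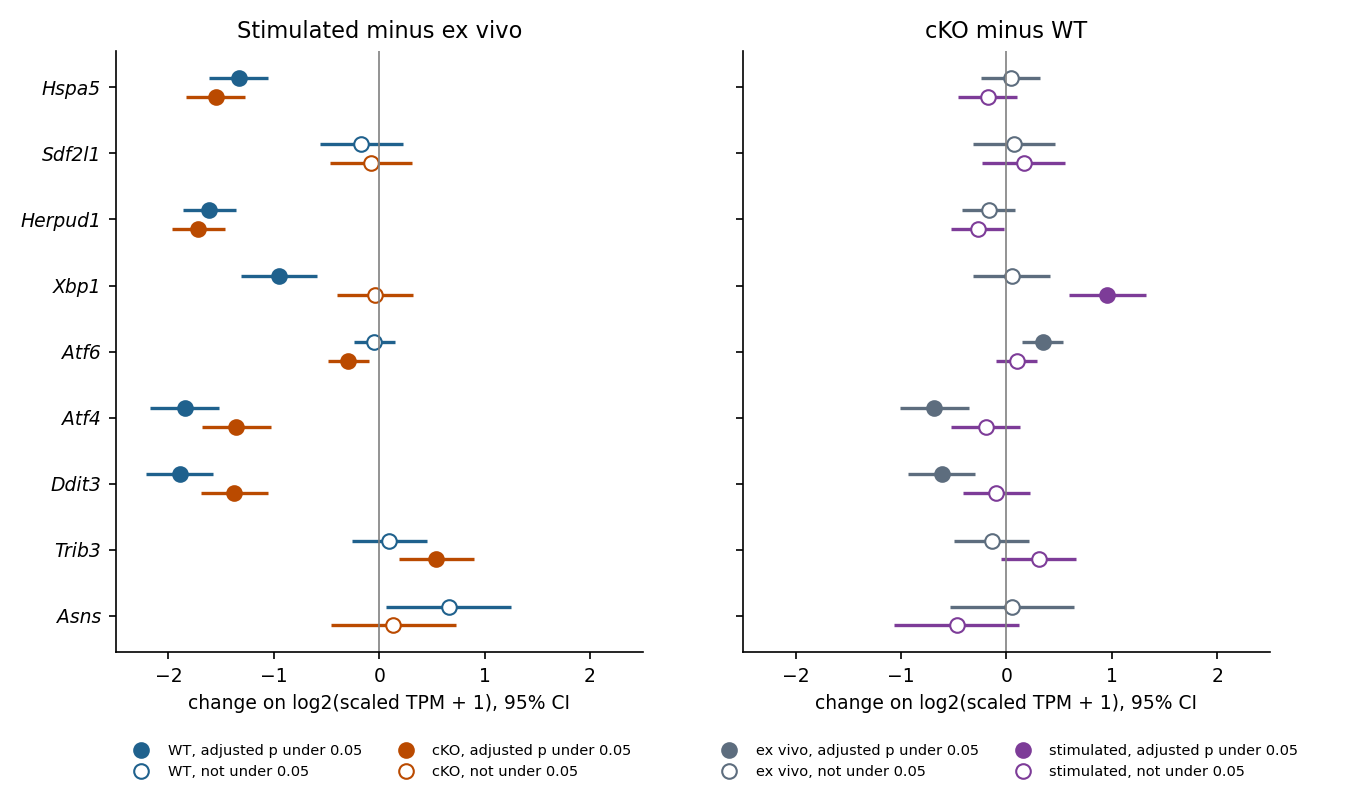
Changes on log2(scaled TPM + 1) (horizontal axis) of the 9 tested genes, for stimulation in each genotype (left) and for genotype in each state (right). Points are fitted changes, lines are 95% intervals and filled points passed an adjusted p under 0.05. The stimulation effects of Xbp1 are -0.95 in WT and -0.04 in cKO, and their difference was not called (interaction 0.91, limma adjusted p = 0.0989). The genotype effect of Xbp1 after stimulation is 0.96.

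In the genotype comparison ex vivo, 3 of the 9 tested members were called, Atf4 and Ddit3 lower and Atf6 higher in cKO, against 5.29% of all genes (3.62% higher, 1.67% lower). Asns, Herpud1, Hspa5, Sdf2l1, Trib3 and Xbp1 did not pass. None of the 3 calls held when only the WT and cKO ex vivo libraries entered the fit (Atf4 adjusted p = 0.0504, Ddit3 0.0574, Atf6 0.118). That fit called 310 of all genes in place of 704. Over the interaction, limma called 0 of 9 members against 1.1% of all genes (0.451% higher, 0.653% lower), and Xbp1, Atf4 and Ddit3 had an unadjusted p under 0.05, as did 14.5% of all genes. The interaction values of Atf4 and Ddit3 were 0.49 (95% interval 0.03 to 0.95, adjusted p = 0.318) and 0.52 (0.07 to 0.97, adjusted p = 0.275). They were 0.20 and 0.26 with genes down to 1 TPM, and -0.0396 and 0.0214 as deposited.

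Asns, Chac1 and Trib3, classical targets of ATF4, were the lowest of the 10 genes. Asns (ENSMUSG00000029752, mm9 chromosome 6, 7625169 to 7643254, minus strand) encodes asparagine synthetase. It read 2.11, 3.07 and 2.25 TPM in ex vivo WT, 3.38, 3.67 and 2.28 TPM in ex vivo cKO, 5.8, 4.11 and 5.58 TPM in stimulated WT, and 4.45, 2.11 and 2.2 TPM in stimulated cKO, from 43 to 130 reads. Every stimulated WT library lay above every WT ex vivo library, as deposited (33.1% of all genes did not overlap) and after scaling (47.5%). The change of 0.66 in WT (SE 0.27, 95% interval 0.07 to 1.25) did not pass (adjusted p = 0.0842), and in cKO it was 0.14 (-0.46 to 0.73). By genotype after stimulation the change of Asns was -0.47 (95% interval -1.06 to 0.12) and was not called. Asns entered the test only through its stimulated WT mean of 5.16 TPM, the group where it was high. Its separation in WT is therefore not read as a rise.

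Trib3 (ENSMUSG00000032715, mm9 chromosome 2, 152163158 to 152169768, minus strand) encodes a pseudokinase that feeds back on ATF4 and CHOP. It read 4.97, 3.74 and 3.6 TPM in ex vivo WT, 4.64, 4.39 and 3.75 TPM in ex vivo cKO, 5.16, 5.43 and 4.59 TPM in stimulated WT, and 6.41, 4.88 and 4.81 TPM in stimulated cKO, from 73 to 128 reads. In cKO the stimulated libraries lay above the ex vivo libraries, as deposited (51.4% of all genes did not overlap) and after scaling (53.5%). The fitted change was 0.54 (SE 0.16, adjusted p = 0.0203). Trib3 passed the filter only through its stimulated means, the side on which it was high, so this p does not count as support for a rise. On TPM as deposited the change was 0.27 (adjusted p = 0.324), and with genes down to 1 TPM it was 0.08 (adjusted p = 0.792). In WT it was 0.09 (95% interval -0.26 to 0.45).

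Chac1 (ENSMUSG00000027313, mm9 chromosome 2, 119176965 to 119180117, plus strand) encodes an enzyme that breaks down glutathione. It stayed under the filter of 5 TPM in every group and was not tested with the others. It read 3.07, 2.33 and 1.05 TPM in ex vivo WT, 2.17, 2.59 and 1.27 TPM in ex vivo cKO, 3.08, 2.39 and 2.51 TPM in stimulated WT, and 7.16, 3.24 and 3.25 TPM in stimulated cKO, from 23 to 80 reads. Stimulated cKO library 1 stood apart at 7.16 TPM. With genes down to 1 TPM in the fit, Chac1 changed by 0.66 under stimulation in cKO (adjusted p = 0.112) and -0.04 in WT (adjusted p = 0.961). It passed as higher in cKO without stimulated cKO library 2 (1.21, adjusted p = 0.0277) or 3 (1.16, adjusted p = 0.0492), which left library 1 to lift the group over 5 TPM, so it entered only through the group where it was high and these calls are not read as a rise.

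The levels of these 3 genes were set beside those of genes that Treg should lack. The 18 markers of B, plasma, myeloid, CD8 T, NK and erythroid cells had a median of 1.64 TPM in ex vivo WT, 1.94 in ex vivo cKO, 2.67 in stimulated WT and 2.76 in stimulated cKO, and their means were higher after stimulation for 16 of the 18 in WT and 15 in cKO. Asns lay above 15 of the 18 in ex vivo WT, 15 in ex vivo cKO, 17 in stimulated WT and 11 in stimulated cKO, in the same order Chac1 above 14, 10, 9 and 16, and Trib3 above 16, 16, 17 and 16. The 1398 olfactory and vomeronasal receptor genes were lower, with medians from 0.687 TPM in ex vivo WT to 1.05 TPM in stimulated cKO. Each of the 3 genes lay above at least 97.9% of them in every group. The part of this low signal in the values of Asns, Chac1 and Trib3 was not tested. In bulk RNA, fewer cells of a type and less RNA per cell cannot be told apart.

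**Figure D3:**
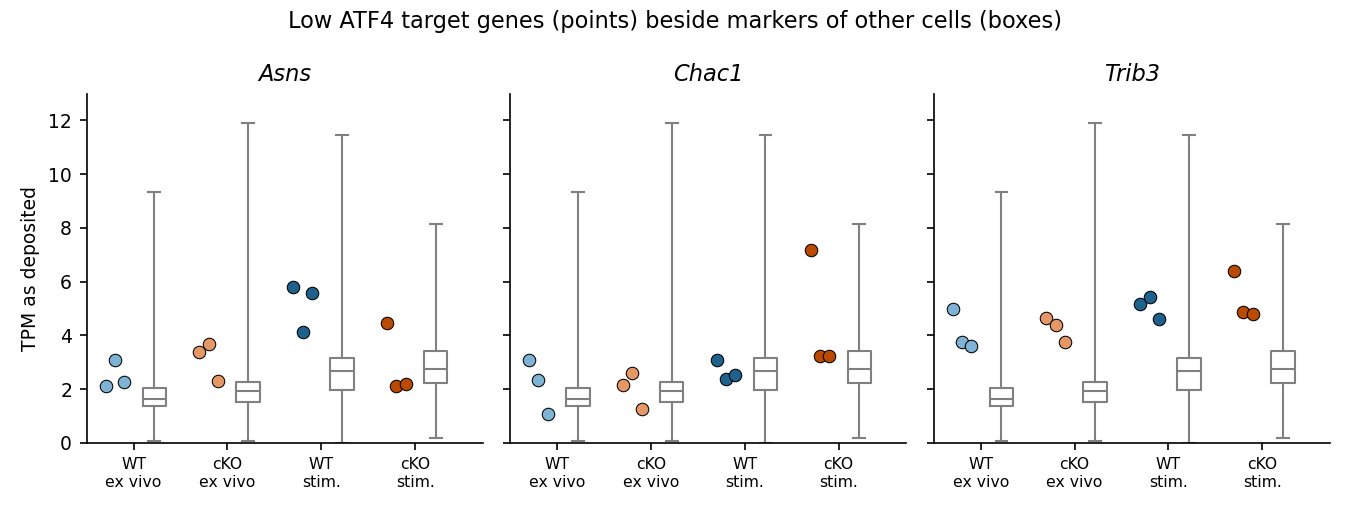
Deposited TPM (vertical axis, linear from 0) of Asns, Chac1 and Trib3 in each library (points) beside the group means of 18 markers of other cell types (boxes show quartiles and median, whiskers the lowest and highest marker). The marker medians lie between 1.64 and 2.76 TPM; all Trib3 points lie above them, and points of Asns and Chac1 lie on both sides.

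The rest of the pathway was read from 6 lists of 70 other genes, of which 63 passed the filter. Under stimulation 9 rose and 17 fell in WT, with a median change of -0.13, against 12.7% higher and 19.3% lower among all genes. In cKO 11 were called higher, Jdp2 among them, and 25 fell, with a median of -0.18, against 17.3% higher and 26.5% lower. By genotype 2 of the 63 were higher in cKO ex vivo and 4 after stimulation, and none was lower, against 3.62% and 3.3% higher and 1.67% and 3.63% lower among all genes. With genes down to 1 TPM these 2 counts were 0 and 0, beside 0.168% and 0.201% called among all genes. As deposited they were 1 and 0, beside 273 and 306 of all genes called, in place of 704 and 923. Under quantile normalization 3 of the 63 were higher ex vivo, and 7 were higher and 1 lower after stimulation. That setting called 673 and 1579 of all genes. The interaction called 0 of the 63 by limma, with 9 at an unadjusted p under 0.05, and 1 under quantile normalization, beside 1.1% called and 14.5% at an unadjusted p under 0.05 among all genes. The stimulation counts moved with the scaling: in WT 18 rose and 10 fell under quantile normalization, 6 and 4 as deposited, and 1 and 7 with genes down to 1 TPM, and in cKO they were 16 and 14, 1 and 28, and 1 and 31 in that order. Over all genes, these settings called 3983, 1943 and 1838 in WT, in place of 4262. In cKO they called 5201, 4674 and 5903, in place of 5835. With genes down to 1 TPM, 33873 genes were tested. Without WT ex vivo library 3, 8 rose and 13 fell in WT, and without stimulated cKO library 3, 11 rose and 16 fell in cKO. These settings, and those below for the lists, were chosen after seeing the data.

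**Figure D4:**
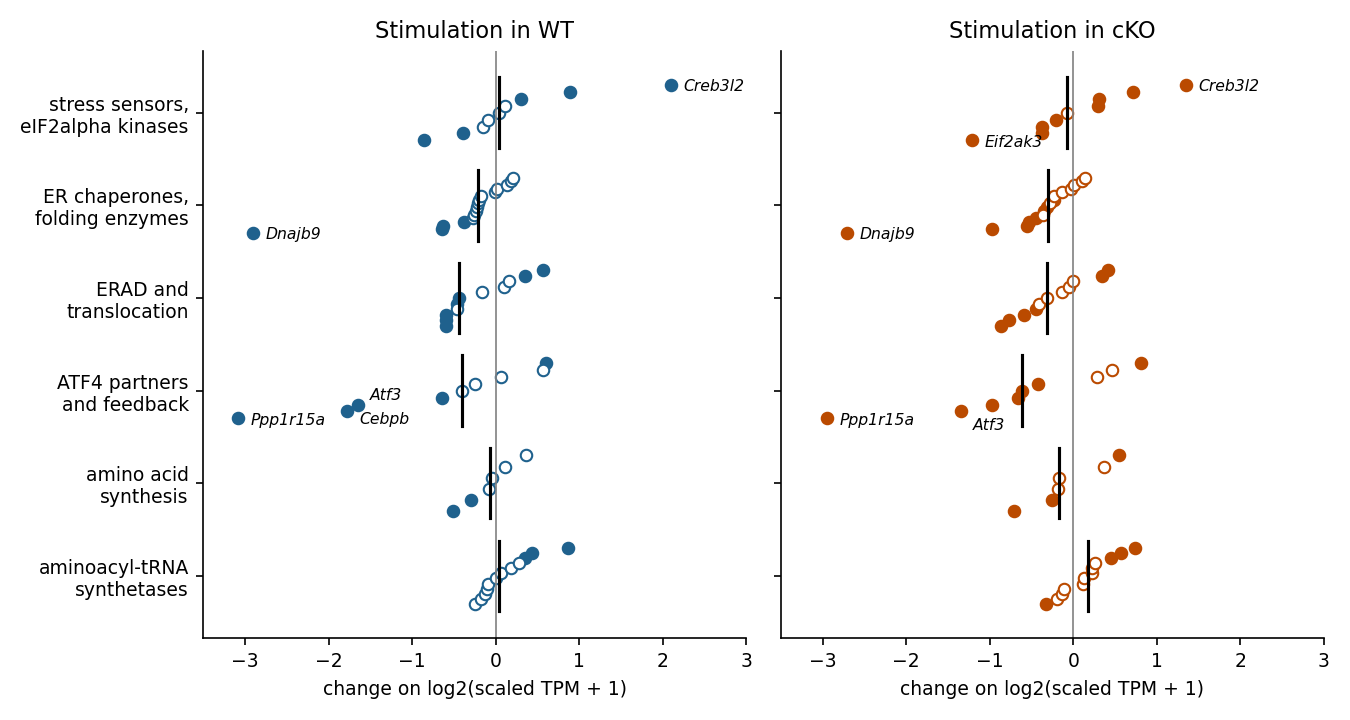
Stimulation changes on log2(scaled TPM + 1) (horizontal axis) of 63 other pathway genes in 6 lists, in WT (left) and cKO (right). Each point is a gene, filled where its adjusted p was under 0.05, and black bars are list medians; Ppp1r15a at -3.09 and -2.95 and Dnajb9 at -2.90 and -2.71 are the lowest, and Creb3l2 at 2.10 and 1.35 the highest.

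Among ATF4 partners and feedback genes, 1 of 9 tested rose and 4 fell in WT, and in cKO 6 fell and 1, Jdp2, was called higher (all genes: 12.7% higher and 19.3% lower in WT, 17.3% and 26.5% in cKO). Ppp1r15a, which encodes GADD34, the phosphatase subunit that reverses eIF2alpha phosphorylation, fell from 419 ± 110 to 54.2 ± 1.19 TPM in WT (SD, n = 3; -3.09, adjusted p = 9.56e-07) and from 374 ± 59.5 to 38.4 ± 9.76 TPM in cKO (-2.95, adjusted p = 1.13e-06). Cebpb, a C/EBP partner of ATF4, fell, with a change of -1.78 in WT (adjusted p = 9.48e-06), and Atf3, a repressor that ATF4 induces, fell, with a change of -1.35 in cKO (adjusted p = 9.42e-05). After stimulation Atf3 was higher in cKO by 0.77 (adjusted p = 0.0164) and Cebpb by 0.68 (adjusted p = 0.0161). Each of these 2 calls held in 4 of the 6 other settings, with values down to 0.48 and 0.38. Cebpg, another C/EBP partner, rose by 0.61 in WT (adjusted p = 0.00206), and Jdp2, an AP-1 repressor, stood at 0.81 in cKO (adjusted p = 0.0286), having reached 5 TPM only in the stimulated groups where it was high. Sesn2, a stress-induced regulator of mTORC1, was higher in cKO ex vivo by 0.45 (adjusted p = 0.0321). The falls of Ppp1r15a, Cebpb and Atf3 were called under each of the 6 other settings tried, whereas Jdp2 and Sesn2 were each called in 2, and Sesn2 was not called without WT ex vivo library 3.

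Among 16 ER chaperones and folding enzymes, 4 fell in WT and 8 in cKO, and none rose, beside 19.3% and 26.5% lower among all genes. In cKO 4 fell without stimulated cKO library 3, 10 as deposited and 12 with genes down to 1 TPM, and in WT 1 fell as deposited and 1 with genes down to 1 TPM. Dnajb9, a BiP cochaperone induced by XBP1, fell from 156 ± 39.9 to 22.5 ± 3.00 TPM in WT (-2.90, adjusted p = 1.77e-06) and from 127 ± 14.9 to 14.7 ± 2.72 TPM in cKO (-2.71, adjusted p = 2.08e-06), and was called in each of the 6 other settings. Calr, the lectin chaperone calreticulin, fell, with a change of -0.64 in WT (adjusted p = 0.00155) and -0.98 in cKO (adjusted p = 8.57e-05). Under quantile normalization 4 of the 16 rose and 2 fell in WT, 2 rose and 3 fell in cKO, and Calr stood at 0.00476 in WT. The direction of the smaller chaperone changes thus depended on the scaling.

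Of the ER-associated degradation and translocation genes, 2 of 11 were higher and 5 lower in WT, and 2 higher and 4 lower in cKO, beside 12.7% and 19.3% of all genes in WT and 17.3% and 26.5% in cKO. In WT these counts were 1 and 0 as deposited, 0 and 2 with genes down to 1 TPM and 4 and 3 under quantile normalization, and in cKO 0 and 5, 0 and 5, and 1 and 3 in that order. Edem1, which helps extract misfolded glycoproteins, fell, with a change of -0.60 in WT and -0.77 in cKO (adjusted p = 0.00164 and 0.000261), Os9, a lectin of the same route, -0.60 in WT (adjusted p = 0.000229), and Derl1, a channel component, -0.86 in cKO (adjusted p = 2.68e-05). Derl2 rose by 0.56 in WT and 0.41 in cKO, and Edem3 by 0.35 in both, though both turned negative in cKO with genes down to 1 TPM (-0.06 and -0.15), and in WT Edem3 was called in 3 of the 6 other settings, with values down to 0.11. Of the stress sensors and eIF2alpha kinases, 3 of 9 were higher and 2 lower in WT and 4 and 4 in cKO, against the same shares of all genes. In WT these counts were 2 and 0 as deposited, 1 and 1 with genes down to 1 TPM and 4 and 1 under quantile normalization, and in cKO 1 and 4, 1 and 4, and 4 and 2; without stimulated cKO library 3, 2 were lower in cKO. Creb3l2, a membrane-bound relative of ATF6, rose from 7.34 ± 1.51 to 39.4 ± 4.79 TPM in WT (2.10, adjusted p = 3.77e-06) and from 18.6 ± 3.09 to 39.3 ± 8.66 TPM in cKO (1.35, adjusted p = 4.72e-05), and was higher in cKO ex vivo by 1.01 (adjusted p = 0.00318). Ern1, which encodes IRE1, rose by 0.89 and 0.72, and Eif2ak3, which encodes PERK, fell, with a change of -0.86 and -1.21, in WT and cKO. The Ern1 call held in 5 of the 6 other settings in WT and in 4 in cKO, where its value went down to 0.23. Creb3, another membrane-bound factor, fell, with a change of -0.40 in WT (adjusted p = 0.0194), a call that held in 2 of the 6 other settings, and Eif2ak4, the amino acid sensor GCN2, fell, with a change of -0.38 in cKO (adjusted p = 0.0128). Eif2ak2, the double-stranded RNA sensor PKR, was higher in cKO after stimulation by 0.57 (adjusted p = 0.00527). That call held in 4 of the 6 other settings, with values down to 0.28.

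Enzymes downstream of ATF4 were counted in 2 lists. Of 6 tested genes of amino acid synthesis and one-carbon metabolism, 2 fell in WT and, in cKO, 1 rose and 2 fell, beside 19.3% lower among all genes in WT and 17.3% higher and 26.5% lower in cKO. Aldh18a1, of proline synthesis, rose by 0.55 in cKO, a call that held in 4 of the 6 other settings, with values down to 0.025. Phgdh, the first enzyme of serine synthesis, fell, with a change of -0.51 and -0.71, and Mthfd2, a mitochondrial folate enzyme, by changes of -0.30 and -0.25, in WT and cKO. In WT the call of Phgdh held in 1 and that of Mthfd2 in 2 of the 6 other settings, and without WT ex vivo library 3 neither passed; in cKO they held in 6 and 3. Of 12 aminoacyl-tRNA synthetases, which charge tRNAs with amino acids, 3 rose in WT, and 3 rose and 1 fell in cKO, beside 12.7% and 17.3% higher among all genes. Under quantile normalization 5 rose in WT and 7 in cKO, and with genes down to 1 TPM none rose in either. Cars rose by 0.86 and 0.74, Mars by 0.44 in WT, and Wars by 0.57 in cKO, while Nars fell, with a change of -0.33 in cKO and stood at 0.08 under quantile normalization. Wars was also higher in cKO after stimulation by 0.45 (adjusted p = 0.0168), a call that held in 4 of the 6 other settings, with values down to 0.15.

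The genes whose profile over the 12 libraries was nearest to a member, by root mean square difference of centred log2(scaled TPM + 1), were listed for 4 members as a description. For Hspa5 they were Btg1 (0.0922), Ddx3x (0.0967) and Slc38a2 (0.098), and for Atf4 Gm8369 (0.137), Stk17b (0.144) and Snhg1 (0.167). For Ddit3 they were P2rx7 (0.17), Snhg1 (0.177) and Gas5 (0.203), so Snhg1 was near both Atf4 and Ddit3. For Xbp1 they were Abtb2 (0.12), Pml (0.175) and Cdk6 (0.18). Abtb2 averaged 29.8 TPM in ex vivo WT, 32.6 in ex vivo cKO, 17.3 in stimulated WT and 26.7 in stimulated cKO.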

How the data were processed

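Per the labels and the study's methods, the authors depleted ribosomal RNA, made directional libraries, sequenced 51 bp paired ends, aligned them to mm9 with STAR 2.6.0c and counted reads on Ensembl 67 exons by strand with HTSeq 0.6.1. The deposited expression signal is TPM, listed beside the authors' log2 values of it, which were used only to recover reads behind a value (whole within 0.01 for 99.9977% of values). A further deposited table holds the authors' own edgeR comparisons and was not used. Number of per-sample columns left unused: 0.

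Here, genes that averaged 5 TPM or more in some group were kept, and TMM factors (trimmed mean of M-values, 30% of M and 5% of A left out) were computed over them. After a pseudocount of 1 and log2, limma 3.58.1 (R 4.3.3) took the 12 libraries in a single model with a mean-variance trend; p-values are two-sided and Benjamini-Hochberg adjusted over all 13318 genes, called under 0.05. Fold changes on this scale understate low genes. Because the unit is TPM, no count model was run. The fit was tested on simulated data. Positions come from the GENCODE vM1 annotation of NCBIM37 (mm9), which placed 35859 of 36222 genes. Files were read with Python 3.11.15 and pandas 2.3.3.

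Members and lists were chosen with earlier results of these data known. Named genes were the 10 members, Ikzf1, the 2 largest called rises and falls of each list in each comparison, and the 3 genes nearest in pattern to Hspa5, Xbp1, Atf4 and Ddit3. Libraries came from single mice per the labels, but whether the stimulated and ex vivo cells of a number shared a mouse was not given in the sources used here. Alternatives were the filter, scaling, pseudocount, trend, groups in the fit, the replicate number as a block, and each library left out. Intervals from reads were not computed; no molecular identifiers were named in the sources used here.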

Additional observations from a re-analysis of the deposited data

How the results depend on the processing

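Of 971 values of single members under alternatives, 861 kept direction and side of the threshold, 53 lost a call, 7 gained one in the same direction and 50 changed sign, 1 of these with a call. The falls of Hspa5, Atf4, Ddit3 and Herpud1 under stimulation were called in all 22 alternatives in both genotypes. The number of members called by genotype ex vivo was 3, beside 704 of all genes. It was 0 with a 1 TPM filter, with no filter, on TPM as deposited, with only the groups compared and with the replicate block. Over all genes those settings called 57, 56, 273, 310 and 516 in that order. With a library left out, the member count was 0 to 3. It was 0 without WT ex vivo library 1 or 3 or any cKO ex vivo library, where 324 to 502 of all genes were called. By genotype after stimulation, 1 became 0 with a 1 TPM filter, with no filter or as deposited, where 68, 68 and 306 of all genes were called in place of 923. It became 2 under quantile normalization (1579 of all genes) and stayed 1 with any library left out. The 2 included Asns, lower in cKO (-0.82, adjusted p = 0.0441). Asns had entered the test only through stimulated WT, where it was high, so its call is not read as a difference. The interaction count, 0, was 1 under quantile normalization (392 of all genes called, in place of 147) and 0 to 1 with a library left out. Stimulation counts ran from 5 to 6 in WT and 4 to 7 in cKO with a library left out. The 6 in WT, without WT ex vivo library 2, included Asns (adjusted p = 0.0409), and the 7 in cKO included Chac1. Asns and Chac1 had entered the test only through groups where they were high, so neither call is read as a rise. Atf6 under stimulation in cKO was lost without cKO ex vivo library 1 or 3 or stimulated cKO library 3, and Trib3 without cKO ex vivo library 3 or stimulated cKO library 1. The cause of these changes was not tested.

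Scaling over 1 TPM genes moved the median of all genes by -0.28 (genotype, stimulated), -0.24 (stimulation, WT), -0.49 (stimulation, cKO) and -0.26 (interaction), and TPM as deposited moved it by 0.22 ex vivo, -0.26, 0.18, -0.30 and -0.48 in the same order. Signs that changed belonged to members not called in the comparison as reported, and 1 changed value, of Xbp1, was called. By genotype ex vivo they were Asns under quantile normalization (-0.0129) and, as deposited, Herpud1 (0.0676) and Trib3 (0.0498). By genotype after stimulation they were Hspa5 (0.0308) and Atf4 (0.0205) under quantile normalization, and with 1 TPM, no filter and as deposited Atf6 (-0.18, -0.17, -0.17) and Sdf2l1 (-0.12, -0.12, -0.11). Under stimulation in WT they were, as deposited, Atf6 (0.14) and Sdf2l1 (0.0182), and Trib3 with 1 TPM (-0.12), no filter (-0.10) and quantile normalization (-0.12). Under stimulation in cKO they were Xbp1 with median of ratios (0.0231) and quantile normalization (0.52, adjusted p = 0.00786), and Asns with 1 TPM (-0.27), no filter (-0.26), as deposited (-0.10) and quantile normalization (-0.46). In the interaction they were Atf4 as deposited (-0.0396) and Sdf2l1 with 1 TPM (-0.18), no filter (-0.19) and as deposited (-0.40).

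With a library left out, signs changed for Hspa5 (-0.0363 to 0.175), Xbp1 (-0.0581 to 0.166), Asns (-0.10 to 0.26) and Sdf2l1 (-0.0816 to 0.196) by genotype ex vivo, Atf4 (-0.347 to 0.014) and Ddit3 (-0.23 to 0.0028) by genotype after stimulation, Atf6 (-0.103 to 0.0104) and Trib3 (-0.04995 to 0.216) under stimulation in WT, Xbp1 (-0.15 to 0.18) and Asns (-0.0267 to 0.248) in cKO, and Herpud1 (-0.217 to 0.02002) and Sdf2l1 (-0.0519 to 0.244) in the interaction.

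Same-numbered libraries had correlations of their deviations from -0.209 to 0.257, over 0.1 in 2 of 12 pairs, so the numbers were not taken to pair samples. Ex vivo, each library correlated best with its own number. The replicate block gave 0, 1, 5, 6 and 0 members called in the order genotype ex vivo, genotype stimulated, stimulation in WT, stimulation in cKO and interaction, and over all genes ex vivo 516 in place of 704.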
